A study of Rattus norvegicus with 13 samples.

Results

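Rat chromosome 12 was described here as a single block of the methylated genome, from 2 Mb inside its start to 2 Mb before its end. Its members are all 1 kb windows of chromosome 12 with a start from 2000001 to 50716001 in build Rnor_6.0, which gave 48717 of the 2782040 windows in the deposited tables. The chromosome was chosen by measured values: of the 20 autosomes, it leaned most towards lower signal in morulae than in sperm. Values that compare these tissues are therefore given below as a description with no test. The study measured DNA methylation by MeDIP-seq in 13 libraries of outbred Hsd:Sprague Dawley SD rats. Pregnant females of the founder generation were injected with the insecticide DDT on each of embryonic days 8 to 14, or with the solvent DMSO as vehicle control. No later generation was treated, and lines were bred within each lineage without inbreeding to generation F3. Sperm came from the cauda epididymis of F3 males kept to an age of 1 year and gave 3 control and 4 DDT libraries. Morulae, 3 control and 3 DDT libraries, were pools of embryos made by injecting F3 sperm of either lineage into oocytes of superovulated adult SD donors, for which no lineage is given. The labels give no DDT dose and do not say whether replicates came from separate animals, so each p-value measures only how far these libraries spread, which may be technical.

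In mammals most DNA methylation sits on cytosines of CpG dinucleotides. Mature sperm carry a densely methylated genome, and much of that methylation is removed between fertilisation and the blastocyst, actively on the paternal chromosomes and mainly by dilution over cell divisions on the maternal ones, while imprinted regions and some repeats keep theirs. The morula lies within this phase, and its DNA holds a maternal and a paternal copy of each chromosome, whereas sperm DNA is paternal only. In MeDIP an antibody against methylated cytosine pulls down fragmented DNA, and a window's count rises with the number of methylated cytosines in it and is relative to the rest of the library. A loss of methylation shared by the whole genome does not appear in such values, and a difference on 1 chromosome is a difference in its share of the signal. Values are CPM, counts per 1000000 counts of the library, averaged over 1 kb windows.

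Library totals ranged from 30386626 to 193750804 counts, of which 636420 to 4330775 fell on the chromosome 12 windows, or a median of 8 to 72 counts per window. No window of any library held more than 2000 counts. Of the 7 sperm libraries, replicate 3 of the control and replicate 4 of the DDT lineage stand apart. They were the shallowest of the 13, with 30386626 and 33684143 counts. No count fell on 11.1% and 9.94% of their chromosome 12 windows, while 5.47% to 6.25% were empty in each of the 11 remaining libraries. Their median chromosome 12 window held 0.263 and 0.267 CPM, and that of the 5 deeper sperm libraries 0.366 to 0.372. Results that rest on these libraries are given with and without them.

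In sperm, chromosome 12 held more MeDIP signal per window than the other autosomes, while in morulae it lay slightly under them. The mean on chromosome 12 divided by the mean over the 2490024 windows of the other autosomes was 1.18, 1.24 and 1.18 in control sperm replicates 1 to 3. In DDT sperm replicates 1 to 4 this ratio was 1.28, 1.27, 1.22 and 1.19. In control morulae it was 0.962, 0.975 and 0.957, and in DDT morulae 0.950, 0.954 and 0.954. The 6 morula libraries and the 7 sperm libraries did not overlap, and both sperm libraries that stand apart lay at the low end of the sperm range. Most of the distance from the other autosomes was therefore on the sperm side. Taken over 1 Mb steps in place of single windows, the median step of chromosome 12 was 1.21 to 1.35 times that of the other autosomes in the sperm libraries and 0.933 to 0.967 times in the morula libraries.

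The signal was followed along the chromosome in 49 steps of 1 Mb, the last of which holds 717 windows. In morulae the course was nearly level over most of the chromosome. The median step held 0.333 CPM per window in control morulae and 0.325 in DDT morulae, and from the lower to the upper quartile the steps lay between 0.321 and 0.357 in the control group and between 0.313 and 0.345 in the DDT group. This evenness was interrupted by peaks of up to 0.738 CPM in control and 0.796 CPM in DDT morulae. In sperm the median step held 0.461 CPM in the control and 0.473 CPM in the DDT group, and the quartiles were 0.404 and 0.499, and 0.417 and 0.507. The sperm course ranged from 0.216 to 0.601 CPM in the control group and from 0.212 to 0.602 in the DDT group. The distance between the quartiles, divided by the median step, was 0.0916 to 0.123 in the 6 morula libraries and 0.170 to 0.234 in the 7 sperm libraries. On the other autosomes the same measure was 0.124 to 0.177 and 0.244 to 0.412, so that within each library chromosome 12 varied less along its middle steps than the other autosomes pooled. Single autosomes came close to it, and chromosome 10 was more even by the control morula means. For the control morula means the measure was 0.108 on chromosome 12, and 0.099, 0.109 and 0.110 on chromosomes 10, 19 and 20. For the control sperm means it was 0.205 on chromosome 12, and 0.220, 0.218 and 0.335 on those 3.

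**Figure D1:**
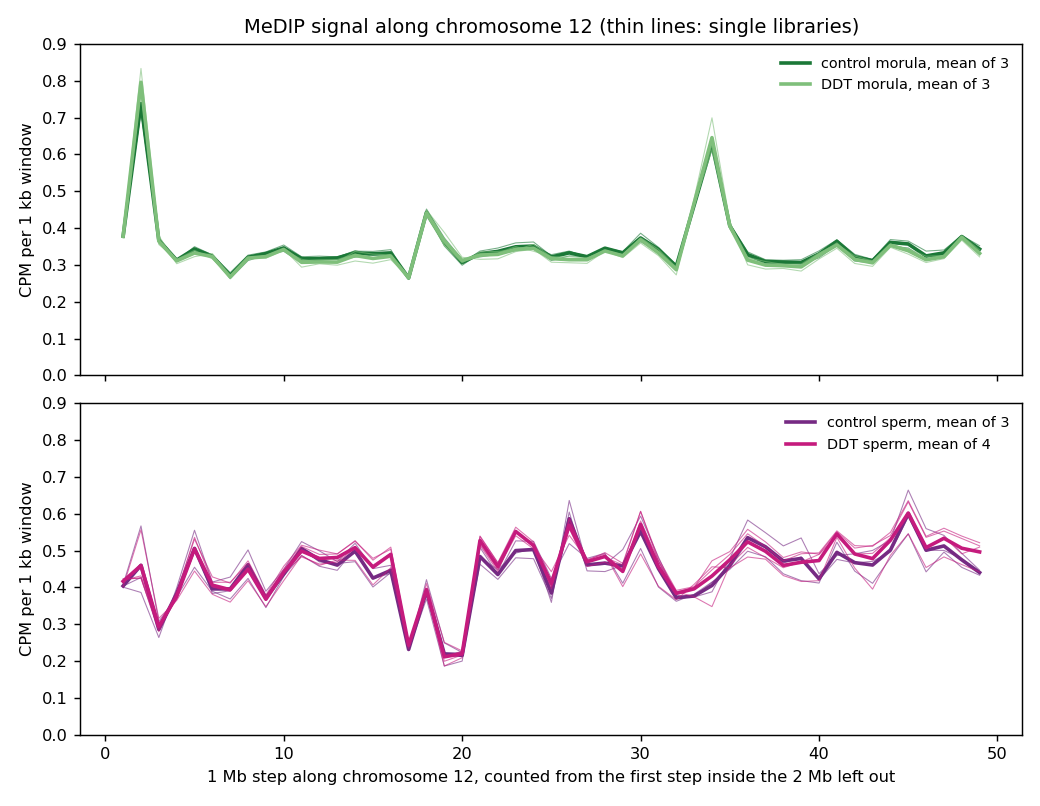
MeDIP signal (CPM per 1 kb window, vertical axis) in each of the 49 steps of 1 Mb along chromosome 12 (horizontal axis), in morulae (top) and sperm (bottom), with 1 thin line per library and a thick line per group mean. The morula course is level near 0.33 CPM but for peaks of up to 0.796 CPM, and the sperm course lies near 0.46 CPM with a trough at 0.22 CPM.

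The lineages shared their course within each tissue. Over the 49 steps, Pearson's r between the control and DDT group means was 0.997 in morulae and 0.974 in sperm (Spearman's rho 0.973 and 0.930). Between tissues r was 0.0186 in the control lineage and -0.0107 in the DDT lineage (rho 0.0728 and 0.0972). For pairs of 1 morula and 1 sperm library, r was 0.169 to 0.382 with the sperm libraries that stand apart and -0.149 to 0.155 with the 5 deeper ones. These pair values are on another scale, log2 of the CPM summed over a step, with 1 added. The summed CPM is not divided by the number of windows, which is smaller in the last step. The pair values are thus not to be set beside the r of group means. Over the 2500 steps of the other autosomes, r between tissues was 0.374 and 0.359 (rho 0.218 and 0.127). Without both libraries that stand apart, r between tissues was -0.0786 and -0.0824 on chromosome 12 and 0.253 and 0.276 on the other autosomes. These correlations are across steps of 1 genome, which share base composition and mappability, and are given without a test.

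By their mean over windows, all 49 steps separated the tissues without overlap, in both lineages. In 41 steps every morula library lay below every sperm library of its lineage, where 44.5% of all autosomal steps did so in the control lineage and 45% in the DDT lineage. In the other 8 steps every morula library lay above every sperm library, where the autosomal share was 42% in the control lineage and 41.9% in the DDT lineage. The 8 steps were the same in both lineages. With the median window of a step in place of the mean, fewer steps separated the tissues. Control morulae were then below control sperm in 11 steps and above in 9, and DDT morulae were below DDT sperm in 14 and above in 9. On the other autosomes 1.40% of the steps then lay below and 53.0% above in the control lineage. In the DDT lineage these shares were 1.68% and 48.3%. The median over the 49 steps of the log2 difference, morula over sperm, was -0.45 in the control lineage and -0.56 in the DDT lineage, against -0.01 in both over the other autosomes. Without both sperm libraries that stand apart these medians were -0.48 and -0.58. Taken from the median window of each step, the lean of chromosome 12 was -0.21 in the control lineage and -0.31 in the DDT lineage, where the other autosomes had 0.27 and 0.23. With an offset per library for the dependence of signal on abundance it was -0.20 and -0.27, where the other autosomes had -0.000149 and 0.00172. The distance of chromosome 12 from the other autosomes was then -0.20 and -0.28, against -0.43 and -0.55 without the offset. With the median window this distance was -0.48 and -0.54. The difference of the single steps agreed between the lineages, which share no library, with r of 0.990 over the 49 steps. All these values come from the contrast that chose the chromosome.

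**Figure D2:**
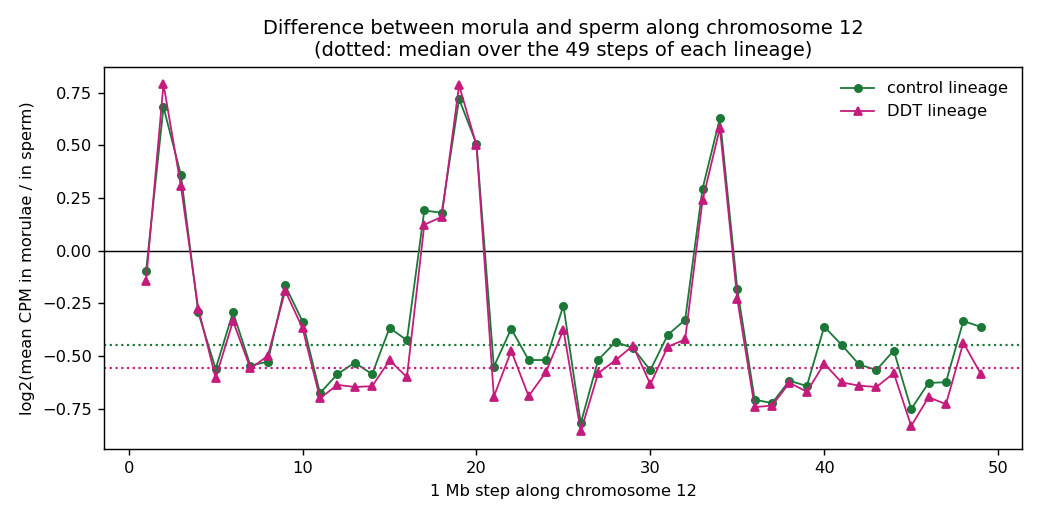
Log2 of the group mean CPM in morulae over that in sperm (vertical axis) in each 1 Mb step along chromosome 12 (horizontal axis), for the control lineage (circles) and the DDT lineage (triangles), with each lineage's median as a dotted line at -0.45 and -0.56. The 8 steps above 0 form 3 separate stretches, and the other 41 steps lie below 0 in both lineages.

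Against single autosomes, chromosome 12 ranked lowest in both lineages. The next were chromosome 19, with medians of -0.32 and -0.34 in the control and DDT lineage, chromosome 10 with -0.27 and -0.30, and chromosome 20 with -0.17 and -0.19. All 4 had a high sperm level: the median step of control sperm was 0.461 CPM on chromosome 12, 0.441 on chromosome 19, 0.398 on chromosome 10 and 0.441 on chromosome 20, against 0.363 over all autosomes but chromosome 12. The median step of control morulae was 0.333 CPM on chromosome 12, 0.348 on chromosome 19, 0.333 on chromosome 10 and 0.347 on chromosome 20. Of the 2500 steps of the other autosomes, 11.6% lay under the chromosome 12 median in the control lineage and 5.68% in the DDT lineage. Under the lowest chromosome 12 step lay 1 of them in the control lineage and 0 in the DDT lineage.

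**Figure D3:**
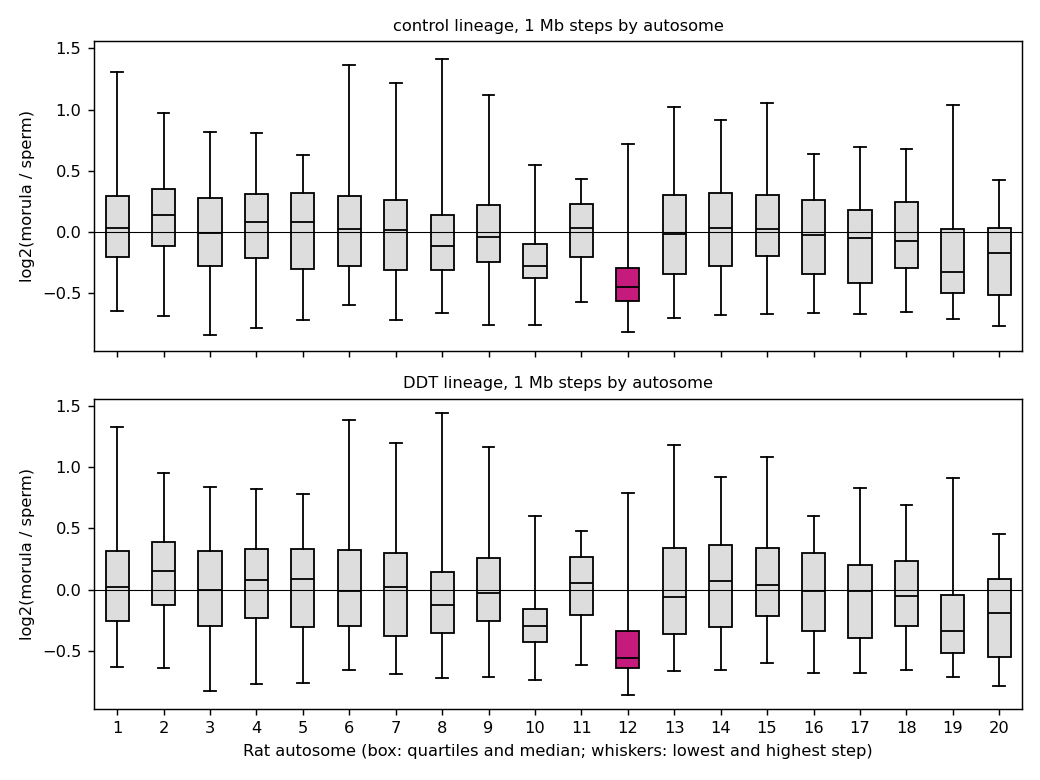
Log2 of morula over sperm signal (vertical axis) over the 1 Mb steps of each autosome (horizontal axis), in the control lineage (top) and the DDT lineage (bottom), as boxes of the quartiles with the median and whiskers to the lowest and highest step. Chromosome 12 (coloured) has the lowest median of the 20, at -0.45 and -0.56, and its steps reach up to 0.72 and 0.79.

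The 4 steps with the strongest lean to sperm were those starting at 27000001, 46000001, 38000001 and 37000001. In the step from 27000001 to 28000000 control morulae held 0.338, 0.336 and 0.325 CPM per window and DDT morulae 0.306, 0.314 and 0.323. Control sperm held 0.605, 0.636 and 0.519 CPM there, and DDT sperm 0.585, 0.589, 0.560 and 0.542. Morula values in this step were those of an ordinary step of the chromosome, and its sperm mean was among the 3 highest of the 49 in both lineages. The log2 difference was -0.82 in the control lineage and -0.86 in the DDT lineage.

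The step from 46000001 to 47000000 had the same form. Its morula means were 0.357 ± 0.00964 CPM (SD, n = 3) in the control and 0.339 ± 0.00793 (n = 3) in the DDT group, while sperm reached the chromosome's highest means, 0.601 ± 0.0599 (n = 3) and 0.602 ± 0.0419 (n = 4). The log2 difference was -0.75 and -0.83. In the steps at 38000001 and 37000001 it was -0.72 and -0.71 in control libraries and -0.73 and -0.74 in DDT libraries, with sperm means of 0.498 to 0.535 CPM and morula means of 0.300 to 0.328. The step nearest to the median of the chromosome, from 17000001 to 18000000, held 0.333 ± 0.00823 CPM in control morulae and 0.447 ± 0.0120 in control sperm, and 0.323 ± 0.00782 in DDT morulae and 0.490 ± 0.0252 in DDT sperm.

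The 8 steps with higher signal in morulae lay in 3 stretches. From 3000001 to 5000000 control morulae held 0.541, 0.541 and 0.577 CPM per window and DDT morulae 0.606, 0.569 and 0.566. Control sperm held 0.357, 0.325 and 0.438 CPM in this stretch, and DDT sperm 0.355, 0.353, 0.364 and 0.436. The highest value in either sperm group was that of the library that stands apart. The log2 difference of the stretch was 0.57 in the control lineage and 0.62 in the DDT lineage. Its first step, from 3000001 to 4000000, had the highest morula level of the chromosome, 0.738 ± 0.0347 CPM (n = 3) in control and 0.796 ± 0.0325 (n = 3) in DDT morulae. Its sperm means were 0.460 CPM in either lineage. The second step, from 4000001 to 5000000, held 0.367 CPM in control and 0.364 in DDT morulae, and 0.286 in control and 0.294 in DDT sperm, so the level of the stretch rests on its first step. Within that step the bin of 100 kb from 3300001 to 3400000 held 3.13 CPM in control and 3.56 in DDT morulae, and 1.81 in control sperm.

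From 34000001 to 36000000 morulae held 0.542, 0.541 and 0.551 CPM in the control and 0.590, 0.544 and 0.537 in the DDT group. Control sperm held 0.394, 0.381 and 0.398 CPM and DDT sperm 0.436, 0.425, 0.361 and 0.433. The log2 difference was 0.48 and 0.43. The step with the larger difference, from 35000001 to 36000000, had values of 0.63 and 0.58.

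In the third stretch, from 18000001 to 22000000, control sperm held 0.265, 0.247 and 0.281 CPM and DDT sperm 0.269, 0.262, 0.258 and 0.281, under the median step of either sperm group. Morulae held 0.341, 0.340 and 0.351 CPM in the control and 0.356, 0.343 and 0.338 in the DDT group. The steps of this stretch were unlike each other. From 18000001 to 19000000 morulae held 0.265 CPM in either lineage, the lowest of the 49 morula means, and sperm 0.232 in the control and 0.243 in the DDT group. From 19000001 to 20000000 morulae held 0.443 and 0.441 CPM, the fourth highest of the 49 in each lineage, and sperm 0.391 and 0.394. The step from 20000001 to 21000000 had the largest difference towards morulae of the whole chromosome, with 0.72 in the control lineage and 0.79 in the DDT lineage. Sperm held 0.220 ± 0.0315 CPM (n = 3) and 0.212 ± 0.0277 (n = 4) there, and morulae 0.362 ± 0.0110 and 0.365 ± 0.0201 (n = 3 each). In the next step, from 21000001 to 22000000, the differences were 0.51 and 0.50.

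Strong windows were more frequent in the stretches at 3000001 to 5000000 and 34000001 to 36000000. In control morulae 11.4% and 15.4% of their windows held 1 CPM or more, against 4.40% in the stretch from 18000001 and 1.29% in the lower stretch from 5000001 to 18000000. The median window in control morulae held 0.311 CPM from 3000001, 0.273 from 18000001 and 0.425 from 34000001, where that of the whole chromosome held 0.307. In control sperm the median window held 0.170, 0.139 and 0.272 CPM in these stretches, all under the 0.355 of the whole chromosome. Windows without a count in any of the 13 libraries were also more frequent in the 8 higher steps, with 37 to 223 of 1000 per step and a median of 142, than in the 41 lower steps, with 0 to 166 and a median of 18. The part of such windows in the course was not tested. With the strongest 0.1% of windows removed, 41 steps were lower and 8 higher as before.

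At 100 kb the picture was finer grained. In 355 of the 488 bins of 100 kb all morula libraries lay below all sperm libraries in both lineages, in 75 they lay above in both, and 58 did neither. Over all autosomes 33% of the bins lay below in both lineages and 31.8% above. The longest unbroken run of higher bins, 2100 kb from 19600001 to 21700000, lay within the stretch from 18000001. The next, 1300 kb from 34600001 to 35900000, held 0.690 CPM in control and 0.714 CPM in DDT morulae. The longest run of lower bins was 5400 kb, from 36200001 to 41600000, with 0.318 and 0.308 CPM in morulae and 0.488 and 0.486 CPM in sperm of the control and DDT lineage. Just inside the borders that chose the windows, the log2 difference of the first Mb was -0.10 in the control lineage and -0.14 in the DDT lineage, and that of the last Mb -0.40 and -0.61. Just outside, it was -0.54 and -0.53 in the Mb before the first border and -0.54 and -0.67 in the Mb after the last.

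The single windows gave a more mixed picture than the steps. In the control lineage 22.3% of the chromosome 12 windows had every morula library below every sperm library, against 12.8% of all autosomal windows, and 18.3% had every morula library above, against 26.3%. In the DDT lineage the shares were 23.2% below, against 13.1%, and 15.0% above, against 23.1%. In both lineages together 7063 windows (14.5%, against 7.2%) lay below and 5357 (11%, against 16%) above. Depth sets part of these shares. After each library was thinned to the total of the smallest, 17.4% of the chromosome 12 windows lay below in the control lineage, against 9.61% on the other autosomes, and 13.4% lay above, against 18.7%. The median log2 difference of a window, with 0.05 CPM added, was -0.12 and -0.21 on chromosome 12 and 0.12 and 0.10 on the other autosomes, in the control and DDT lineage.

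Sperm windows were spread over a wider range of levels than morula windows. In control sperm the median window of chromosome 12 held 0.355 CPM, against 0.262 on the other autosomes, and 7.77% of its windows held 1 CPM or more, against 5.54%. At the low end 16.9% of them were under 0.1 CPM, against 21.4%. In control morulae the median window was 0.307 CPM on chromosome 12 and 0.294 on the other autosomes, and 2.54% of the windows held 1 CPM or more, against 3.79%. The mean signal of chromosome 12 in morulae was thus below that of the other autosomes while its median window was above it.

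Since windows of high sperm signal tended to be lower in morulae on the other autosomes as well, windows were sorted into 10 classes by what the opposite lineage's sperm held, with class borders from all autosomes. Chromosome 12 was rich in the upper classes: 14.8% of its windows were in the highest class by DDT sperm, against 9.91% of the windows of the other autosomes, and 5.75% in the second lowest, against 10.1%. In the lowest class chromosome 12 lay lower by 0.43 (-0.428). There its median window held 0 CPM in sperm and in morulae, in either lineage, so its median log2 difference was 0. On the other autosomes the median control values in this class were 0.0104 CPM in sperm and 0.0470 in morulae. The distance in this class is thus one of windows at or near the floor. Within classes 2 to 9 the median log2 difference of control libraries on chromosome 12 was 0.15 lower to 0.07 higher than on the other autosomes (-0.155 to 0.0723). Over all windows together it was lower by 0.24 (-0.241). In the highest class the medians were -0.91 on chromosome 12 and -0.63 on the other autosomes. In the DDT lineage, with classes by control sperm, the distance was -0.28 in the lowest class, -0.12 to -0.05 in classes 2 to 9, -0.25 in the highest class and -0.30 over all windows. Sorted by the opposite lineage's morula signal, it was -0.47 to -0.27 in classes 2 to 9 in the control lineage and -0.55 to -0.31 in the DDT lineage. By this sorting both medians were at 0 in the lowest class, and in the highest class the distance was -0.18 for control and -0.39 for DDT libraries. Sperm and morula signal are the sides of the contrast that chose the chromosome. The lineages shared their course within each tissue, so classes from the opposite lineage are not independent of that contrast. Sorting by sperm signal holds much of the sperm side fixed by construction, and these distances are a description only.

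**Figure D4:**
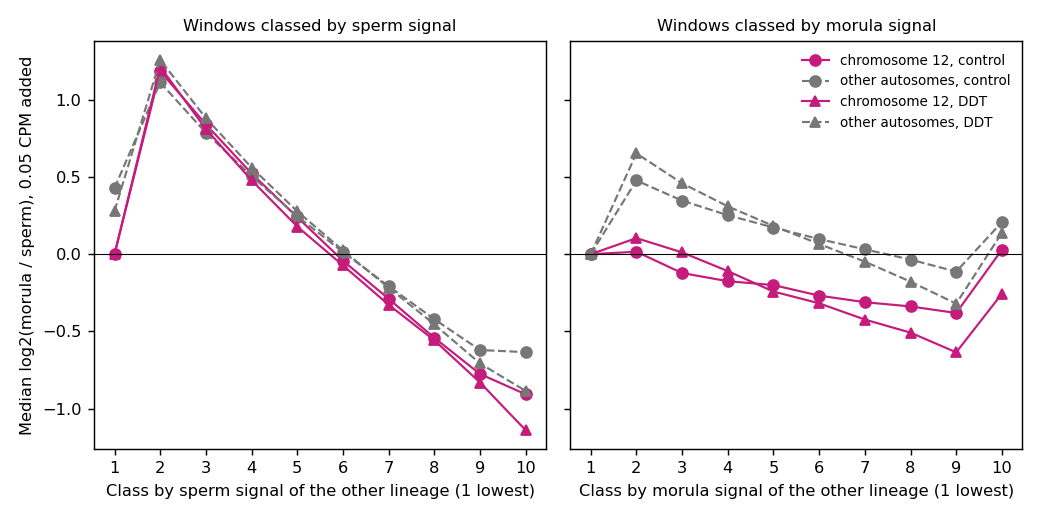
Median log2 of morula over sperm signal (vertical axis) of the 1 kb windows in 10 classes of signal (horizontal axis), sorted by sperm (left) or morula (right) signal in the opposite lineage, for chromosome 12 (solid) and the other autosomes (dashed), in control (circles) and DDT libraries (triangles). Sorted by sperm signal, the chromosome 12 and other medians of classes 2 to 9 lie within 0.16 of each other, and sorted by morula signal chromosome 12 lies 0.27 to 0.55 lower in classes 2 to 9. The sorting signal is a side of the plotted difference, taken from the opposite lineage, so the classes are not independent of it.

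Windows that differed strongly were named from those with at least 1 CPM in the higher tissue and no overlap in both lineages. This held for 2151 windows with lower morula signal (4.42%, against 2.07% of all autosomal windows) and 441 with higher morula signal (0.905%, against 1.52%). The lower windows were present in all 49 steps, at most 93 in a step (from 46000001), while the higher ones lay in 31 steps, with 108 in the step from 3000001. The window from 27058001 to 27059000, in the step of strongest lean, held 10, 13 and 13 counts in control morulae and 6, 4 and 10 in DDT morulae. Control sperm had 168, 331 and 39 counts there and DDT sperm 132, 117, 125 and 34, and the mean CPM was 0.213 ± 0.0574 in control morulae and 1.38 ± 0.287 in control sperm. The next windows, which start at 10382001, 46463001, 12041001 and 5636001, had mean log2 differences of -2.37 to -2.26. In all 4, the values in control sperm replicate 3 and DDT sperm replicate 4 were the highest of their group, for example 3.39 CPM against 1.23 and 1.52 in control sperm at 5636001.

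The 5 windows with the strongest difference in the other direction lay within 14 kb, between 9535001 and 9549000. The step around them, from 9000001 to 10000000, leaned to sperm, with log2 differences of -0.53 and -0.50. The strongest, from 9545001 to 9546000, held 199, 159 and 186 counts in control and 114, 140 and 137 in DDT morulae, against 7, 22 and 4 in control and 20, 28, 16 and 4 in DDT sperm. Its means were 3.18 ± 0.566 CPM in control morulae, 3.29 ± 0.239 in DDT morulae, 0.0979 ± 0.0438 in control sperm and 0.172 ± 0.0687 in DDT sperm. The windows at 9548001, 9535001, 9547001 and 9544001 had mean log2 differences of 3.65 to 3.90 and held 0.947 to 1.44 CPM in morulae and 0.0178 to 0.0611 CPM in sperm. Control sperm replicate 3 had no count in 3 of them, which at its depth allows up to 0.0987 CPM (3 counts, counting error only). Which genes or repeats these windows hold was not analysed here.

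The comparison of DDT with control did not choose the chromosome and was tested, with edgeR's quasi-likelihood test over all steps or windows of the genome and Benjamini-Hochberg adjustment. In morulae, DDT libraries were slightly lower over most of chromosome 12, but 0 of the 49 steps passed the test (0% of all 2705 steps), and 4 had an unadjusted p under 0.05, against 2.07% of all steps. DESeq2 also called 0, with 8 at an unadjusted p under 0.05, against 6.06% of all steps. The median log2 difference, DDT over control, was -0.02 over the 49 steps and 0.00 over the other autosomes (-0.0235 and 0.00114), and 79.6% of the steps were below 0, against 48.6% elsewhere. The step with the smallest p was the one with the strongest lean, from 27000001 to 28000000: its morula values, given above, were all lower in DDT than in control libraries, by 0.08 on the log2 scale (-0.0766, SE 0.0238, adjusted p = 0.958). The step from 46000001 followed, with -0.07 (SE 0.0232, adjusted p = 0.958). In data simulated from these libraries, 100 of 100 steps changed 1.25-fold were recovered among 2705 in morulae, with 16 false calls, and 88 of 100 in sperm, with 6. The simulation gave every step of a comparison the same dispersion and held no library that stands apart, so recovery in the real libraries may be lower.

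Without control morula replicate 3, 1 of the 49 steps passed in morulae (edgeR adjusted p = 0.0491), the step from 3000001 to 4000000 that holds the morula peak, with a log2 difference of 0.16 (SE 0.0278). In this setting 6 of all 2705 steps passed, all as higher in DDT, and 5 of them lay on other autosomes. With all libraries that step had 0.718, 0.719 and 0.778 CPM in control and 0.834, 0.778 and 0.776 in DDT morulae. The groups overlapped there, and the difference was 0.12 (SE 0.0438, adjusted p = 0.958).

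In sperm, DDT libraries were slightly higher over most of the chromosome, and again 0 of the 49 steps passed (0% of all steps). At an unadjusted p under 0.05 edgeR and DESeq2 each had 6, against 2% of all steps with edgeR and 3.03% with DESeq2. The median log2 difference was 0.04 over the 49 steps and -0.01 over the other autosomes, and 73.5% of the steps were above 0, against 41.9%. The step of smallest p, from 24000001 to 25000000, held 0.481, 0.493 and 0.527 CPM in control and 0.564, 0.552, 0.541 and 0.553 in DDT sperm. The groups did not overlap in this step, which was picked by its small p, and the difference was 0.15 (SE 0.0482, adjusted p = 1). The step from 42000001 to 43000000 held 0.476, 0.487 and 0.523 CPM in control and 0.551, 0.554, 0.541 and 0.536 in DDT sperm, with a difference of 0.14 (SE 0.0480, adjusted p = 1).

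The sperm result turned on the libraries that stand apart. Without both of them, which leaves 2 control and 3 DDT libraries, 8 of the 49 steps were higher in DDT sperm (8.43% of all steps were higher) and 0 were lower, and 12.9% of all steps passed in either direction. The 8 steps start at 2000001, 17000001, 22000001, 24000001, 26000001, 41000001, 42000001 and 50000001, with log2 differences of 0.07 to 0.22. The step from 50000001 had the smallest adjusted p (edgeR, 0.000534), at 0.22 (SE 0.0219). Leaving out either library alone gave 0 steps.

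**Figure D5:**
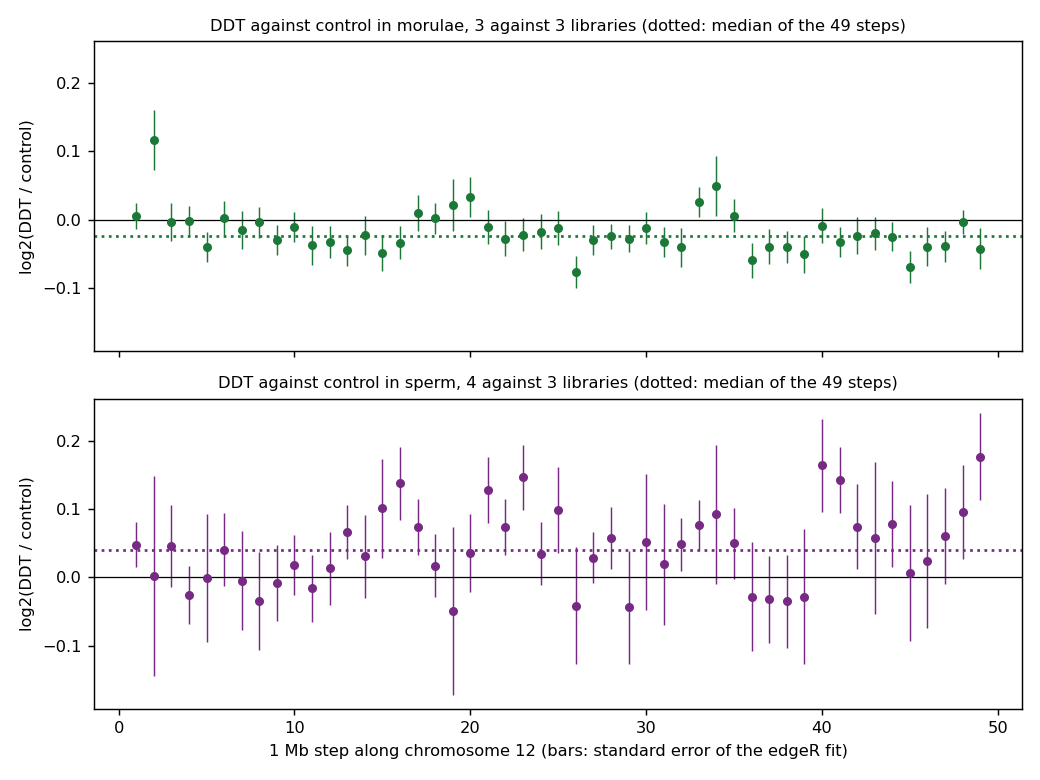
Log2 difference of DDT over control (vertical axis, bars show the standard error of the edgeR fit) in each 1 Mb step along chromosome 12 (horizontal axis), in morulae (top, 3 against 3 libraries) and sperm (bottom, 4 against 3). Most steps lie just below 0 in morulae and just above 0 in sperm, with medians of -0.02 and 0.04 (dotted), and none passed the test with all libraries.

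The difference between the tissues in their DDT response was tested as an interaction over all 13 libraries. The median over the 49 steps, the response in morulae minus that in sperm, was -0.05, against 0.01 over the other autosomes, and 0 steps passed (0% of all steps, edgeR). With edgeR and with DESeq2, 6 had an unadjusted p under 0.05, against 1.89% of all steps with edgeR and 2.85% with DESeq2. The smallest p belonged to the steps from 42000001, with -0.17 (SE 0.0474), and from 24000001, with -0.17 (SE 0.0491), both at adjusted p = 0.999. Without both sperm libraries that stand apart, 4 steps passed, all as lower (0.998% of all steps passed and 0.813% were lower), those from 24000001, 41000001, 42000001 and 50000001, with values of -0.26 to -0.20. The share of all autosomal counts that fell on chromosome 12 was lower in each DDT morula library (1.824%, 1.832% and 1.832%) than in each control morula library (1.847%, 1.871% and 1.838%). The means were 1.829% ± 0.00481 and 1.852% ± 0.0172 (n = 3 each), and the exact two-sided permutation p was 0.1, the smallest that 3 against 3 libraries allow (adjusted over 2 tests 0.2). The DDT morula libraries were also shallower, with totals of 37842198 to 40787673 against 48923904 to 65864303, so lineage and depth cannot be told apart in morulae. In sperm the share was 2.433%, 2.419%, 2.326% and 2.266% in DDT and 2.263%, 2.361% and 2.257% in control libraries, and the groups overlapped (exact permutation p = 0.286, n = 4 and 3, adjusted 0.286).

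No single window of chromosome 12 passed the test between lineages. In morulae 44825 windows had enough counts to be tested and 0 passed, while 1 of the 2568322 windows tested in the genome did (3.89e-05%), and 2151 had an unadjusted p under 0.05, against 4.9% of all windows. In sperm 0 of 43920 passed (0% of all windows), and 2358 had an unadjusted p under 0.05, against 5.92% of all windows. Among the windows of smallest p, the one from 8877001 to 8878000 held 9, 5 and 2 counts in control and 11, 19 and 20 in DDT morulae (edgeR adjusted p = 0.759). The window from 7022001 to 7023000 held 38, 27 and 27 counts in control and 3, 4 and 9 in DDT morulae (adjusted p = 0.763). In sperm the window from 8810001 to 8811000 held 0.138, 0.134 and 0.0987 CPM in control and 0.50, 0.553, 0.576 and 0.297 in DDT libraries (adjusted p = 0.843). The groups did not overlap in these 3 windows, but the windows were picked by their small p. The share of all windows without overlap between lineages was not counted, so this is a description only.

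In simulated data 6 of 100 windows changed 2-fold were recovered in either tissue, and 75 and 68 of 100 changed 4-fold in morulae and sperm, among 92456 and 88268 windows. Here too every window of a comparison had the same dispersion and no library stood apart. The simulation also held only a sample of the windows, and adjustment was over far fewer windows than in the real tests. Real recovery may therefore be lower. Without both sperm libraries that stand apart, 6244 of 44470 chromosome 12 windows passed in sperm (14.0%, against 10.4% of all windows). Of these, 4283 were higher in DDT (9.63%, against 6.4%) and 1961 were lower (4.41%, against 4.02%). This fit rests on 2 control libraries, and leaving out either library that stands apart alone gave 0 windows on chromosome 12.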

How the data were processed

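MeDIP-seq counts were available for 13 libraries. Per the submitters' processing notes, reads were handled with FastQC, Trimmomatic, Bowtie2 and SAMtools and compared with edgeR on build Rnor_6.0. The deposited values used are read counts per 1 kb window, per the file headers. Another 13 per-sample columns were not used. Values are CPM by column sum over all windows, summed in steps of 1 Mb without the outer 2 Mb of each chromosome. The members, lists and rules were chosen with earlier results of these data known. Tests used edgeR 4.0.16 in R 4.3.3 (glmQLFit and glmQLFTest, TMM factors, a mean of at least 5 counts per library, Benjamini-Hochberg adjustment, threshold 0.05), with DESeq2 1.42.0 as alternative for steps, and were tested on simulated data. Adjustment of steps was over all steps of autosomes and X. For windows it was over all tested windows of the deposited tables, with the outer 2 Mb of each chromosome included. Shares were compared by exact permutation. Named steps are the 4 lowest, the 4 highest and the one nearest the median. Named windows are the 5 lowest and 5 highest without overlap and with at least 1 CPM in the higher tissue, and, between lineages, the 2 of smallest p per direction. No genome or annotation of this build was used, so windows carry no gene names or sequences, and the planned gene lists and CpG classes were replaced by classes of signal. Replicate numbers did not pair the libraries. Alternatives were other scalings, filters, summaries, thinning, each library left out, and both sperm libraries that stand apart left out.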

Additional observations from a re-analysis of the deposited data

Results flagged for a closer look

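DDT sperm, the one group of 4 libraries, was screened for a library far from the other 3, over 34 values of chromosome 12. Chance marks about 1 in 20 such groups, and 5 values were marked. The 34 values are not independent, since named steps lie within stretches, so the number marked cannot be read against that rate. DDT sperm replicate 4 had the lowest median CPM per chromosome 12 window, 0.267, and the highest share of windows without a count, 9.94%. The same library was highest in the stretch from 3000001 to 5000000, with 0.436 CPM per window, and in its first step from 3000001 to 4000000, with 0.557 CPM. DDT sperm replicate 3 was lowest in the stretch from 34000001 to 36000000, with 0.361 CPM. In both of these stretches every DDT sperm library still lay below every DDT morula library.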

How the results depend on the processing

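The lean of chromosome 12 kept its sign under every alternative run. It moved beyond the spread between libraries with the median window of a step in place of the mean (-0.212 in the control lineage and -0.310 in the DDT lineage, where the other autosomes moved to 0.270 and 0.229). It also moved with a per-library offset for the dependence of signal on abundance (-0.205 and -0.274, where the other autosomes had -0.000149 and 0.00172). Only with this offset did chromosome 12 move closer to the other autosomes. With the median window, 11 and 14 steps had all morula libraries below all sperm libraries, and on the other autosomes 1.40% and 1.68% of the steps lay below and 53.0% and 48.3% above. The cause was not tested. Leaving out each library in turn gave medians of -0.477 to -0.433 in the control lineage and -0.578 to -0.533 in the DDT lineage, and 41 lower steps each time. Between lineages, leaving out single libraries gave 0 to 1 steps in morulae and 0 in sperm, for the interaction and for windows of either tissue, and share differences of -0.0297 to -0.0131 percentage points in morulae and 0.0432 to 0.101 in sperm. Without both sperm libraries that stand apart, 8 steps and 6244 windows passed in sperm and 4 steps for the interaction. A replicate block gave 0 steps and 0 windows on chromosome 12 (in sperm without DDT replicate 4, which has no partner). Deviations of same-numbered libraries correlated with r of -0.502, 0.423 and -0.559 in morulae and 0.653, 0.921 and -0.638 in sperm. In sperm the median window of chromosome 12 was 0.03 higher in DDT with TMM factors and 0.01 lower (-0.0111) with library totals. The median over all tested windows was -0.0144 with TMM factors and -0.0600 with library totals, so chromosome 12 lay above it under both.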

Other observations

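RefSeq promoters (300 bases around each gene start, build GRCr8, matched by chromosome only) gave a median GC content of 54.7% over the 1065 promoters of chromosome 12, the second highest of the 20 autosomes, against 51.7% over 30942 on the others. The median number of CG dinucleotides per promoter was 9, against 7. Chromosome 10 had 55.0%, chromosome 5 had 54.5% and chromosome 20 had 54.3%. Of these, chromosomes 10 and 20 leaned to sperm, and chromosome 5, with median log2 differences of 0.08 and 0.09, did not. Chromosome 19, with 50.0%, leaned to sperm. The part of base composition in the lean was not tested. Over the 20 autosomes, which share these libraries, Spearman's rho between promoter GC and the median log2 difference of morula over sperm was -0.262 in the control lineage and -0.320 in the DDT lineage, given as a description.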
